A study of Homo sapiens with 6 samples.

Results

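The RNA levels of 10 ETS family transcription factors were followed in 6 lines of human prostate cancer, each represented by a single library. The factors were taken by gene name: ERG, ETV1, ETV4, ETV5, ETV6, FLI1, SPDEF, ELF3, EHF and ETS2. All 10 were found, among 42887 gene symbols left after small RNA classes were removed. The labels call LNCaP (spelled LnCaP there), VCaP and LAPC4 castration sensitive. Castration resistant is the label of LAPC4-CR, VCaP-CR and LNCaP-abl. These carry the name of a parental line, so the libraries form 3 pairs, and parent and resistant line together are called a lineage here. The sensitive lines had medium with 10% untreated serum, on a base of DMEM for VCaP and RPMI for the others. The resistant lines were all kept in RPMI with B27 supplement and 10% serum stripped of steroids with charcoal. Medium and state therefore differ together in every pair and cannot be told apart.

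ETS factors share a winged helix-turn-helix DNA-binding domain, the ETS domain, that contacts a GGAA core. In prostate cancer, chromosomal rearrangements place ERG, or less often ETV1, ETV4, ETV5 or FLI1, under the control of regulatory DNA that is active in prostate luminal cells, much of it driven by androgen. The androgen-regulated gene TMPRSS2 is the usual partner of ERG. VCaP is known to carry the TMPRSS2-ERG fusion, and in LNCaP the ETV1 locus is known to be moved into the MIPOL1 region of chromosome 14. SPDEF, ELF3 and EHF are ETS factors of normal secretory epithelium. ETV6 is a repressor, and ETS2 is a target of RAS and ERK phosphorylation.

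Total counts ran from 8661337 to 22433655 per library, with the resistant library always deeper than its parent. Between 62.8% and 79.5% of counts fell on protein-coding genes, again with the higher value in the resistant library of each pair. Levels are given as scaled FPKM, which is a count per gene length and library total, divided by a factor that aligns the libraries on their common genes. The 8 luminal markers all reached the mean of 1 scaled FPKM set for testing, with a summed level of 403 to 977 scaled FPKM. Markers of endothelium and of blood cells, which both use ERG and FLI1, summed to 2.16 to 3.64 (7 genes) and 1.69 to 3.48 (7 genes) scaled FPKM, and 0 of these 14 genes reached that mean. The 6 fibroblast markers summed to 1.89 to 3.23 scaled FPKM in the LNCaP and LAPC4 lineages and to 5.28 and 51.6 in VCaP and VCaP-CR. The sum in VCaP-CR was nearly all LUM, which was at 3.94 and 50.2 scaled FPKM in the VCaP pair (VCaP contrast 5.17, edgeR adjusted p = 0.018), while COL1A1 was at most 0.699 anywhere. The 7 neuroendocrine markers summed to 13.2 and 36.8 in VCaP and VCaP-CR and to 6.24 to 14.4 elsewhere. The VCaP contrast called 3 of the 5 tested higher and 0 lower, against 7.04% and 5.27% of all genes. Among the 3 was CHGA, with 2.37 and 21.6 in the VCaP pair (4.80, edgeR adjusted p = 0.022). LUM and CHGA could reach the mean set for testing through the VCaP libraries alone, so their calls are no independent evidence. The 5 basal markers summed to 9.12 and 19.3 in LAPC4 and LAPC4-CR and to 3.43 to 7.59 elsewhere. ITGB4, the 1 tested, was higher in the LAPC4 contrast (1.48, edgeR adjusted p = 0.026), which called 4.84% of all genes higher. The part of these markers in the VCaP and LAPC4 results was not tested.

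The ETS factors of the rearranged class differed between lines. ERG was high in the 2 VCaP libraries and ETV1 in LNCaP, with neither above 0.295 elsewhere, and ETV4 and ETV5 were highest in the 2 LAPC4 libraries, as the plot of levels shows. FLI1 was low in all 6. SPDEF and EHF were abundant in every library.

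**Figure D1:**
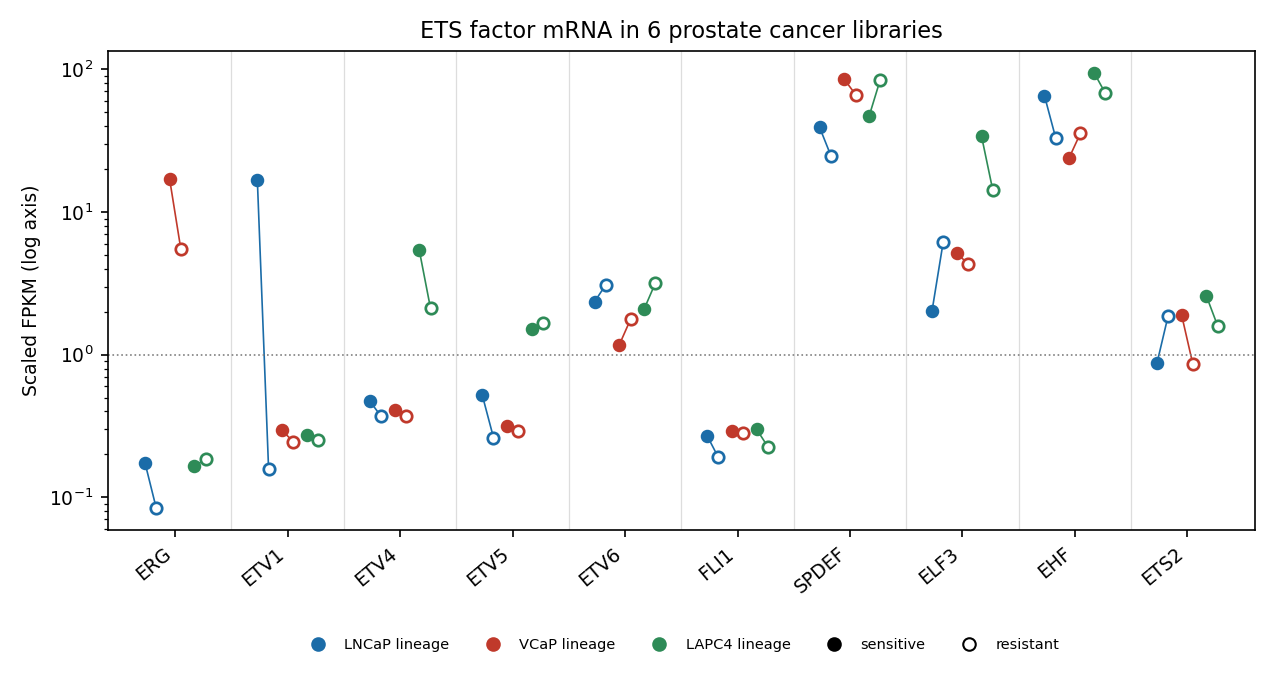
Scaled FPKM (log axis) of the 10 ETS factors. Each point is 1 library, filled for the castration-sensitive and open for the castration-resistant line, with a line joining the pair and a dotted line at 1; ERG stands out in the VCaP lineage (16.9 and 5.46) and ETV1 in LNCaP (16.6) but not LNCaP-abl (0.157).

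ERG (ENSG00000157554, hg18 chr21:38673819-38955574, gene length 8000 nt) was at 16.9 scaled FPKM in the VCaP library (1325 counts) and 5.46 in the VCaP-CR library (701 counts). The LNCaP pair had 0.175 and 0.0845 (13 and 8 counts), and the LAPC4 pair 0.165 and 0.186 (17 and 37 counts), the parent being given first here and throughout. The VCaP libraries thus lay above all others, and the other 4 could not be ordered beyond counting error in either pair. In the contrast of the VCaP lineage with the mean of the LNCaP and LAPC4 lineages, ERG rose by a log2 fold change of 6.02 (SE 0.43, adjusted p = 0.0018, edgeR). That contrast called 7.04% of 16231 tested genes higher and 5.27% lower. The known fusion makes this a check of the VCaP labels. Within the pair, VCaP-CR was 3.10-fold lower than VCaP, with a 95% counting interval of 2.83 to 3.40. All intervals of this kind cover counting error only, since each line has 1 library. In RNA from whole cultures, fewer expressing cells and less RNA per cell cannot be told apart.

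ETV1 (ENSG00000006468, hg18 chr7:13897378-13997575, 9686 nt) was at 16.6 scaled FPKM in the LNCaP library (1492 counts) and 0.157 in the LNCaP-abl library (18 counts). The VCaP pair had 0.295 and 0.245 (28 and 38 counts), and the LAPC4 pair 0.272 and 0.253 (34 and 61 counts). LNCaP-abl was 106-fold below its parent, with a counting interval of 66.7 to 179, and had the lowest level of the 6. The high level was therefore that of 1 library, not of the lineage. The edgeR contrast of the LNCaP lineage with the other lineages gave a log2 fold change of 3.88 with an SE of 1.58 (adjusted p = 0.22). Without LNCaP-abl the edgeR contrast was 5.86 (adjusted p = 0.0056), with the lone LNCaP library assumed to vary like the others, and without LNCaP it was -0.67 (adjusted p = 0.50).

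Promoter windows from RefSeq on GRCh38.p14, 250 bases before to 50 after a transcript start, matched 7 of the 10 members with 17 windows. ETV4, ETV5 and FLI1 had none. The GGAA core was searched on both strands, so also as TTCC. It was found in 16 of the 17 windows, against 95.5% of all 35116 windows of this length, and the longer ETS motif CCGGAAGT, also searched on both strands, in 0 of 17, against 4.14% of all. A core of an androgen receptor half-site, AGAACA, searched in the same way, was in 2 of the 17 windows, both overlapping windows of ETV1, against 14.8% of all. Below are the most upstream windows of ERG and ETV1, the own promoters of the genes that were high in a single lineage or library, and that of ELF3, whose pairs went in opposite directions. They are written 5′ to 3′ on the gene's strand with each GGAA or TTCC in capitals. ERG had 1 such match at chr21:38660618-38660917 (minus strand), ETV1 had 4 at chr7:13991376-13991675 (minus strand) and ELF3 had 2 at chr1:202010337-202010636 (plus strand), against a median of 3 over all windows. A match is not a bound site. VCaP is known to carry the TMPRSS2-ERG fusion, so its ERG RNA need not start in the ERG window printed here. TMPRSS2 had no window in the set used.
ERG: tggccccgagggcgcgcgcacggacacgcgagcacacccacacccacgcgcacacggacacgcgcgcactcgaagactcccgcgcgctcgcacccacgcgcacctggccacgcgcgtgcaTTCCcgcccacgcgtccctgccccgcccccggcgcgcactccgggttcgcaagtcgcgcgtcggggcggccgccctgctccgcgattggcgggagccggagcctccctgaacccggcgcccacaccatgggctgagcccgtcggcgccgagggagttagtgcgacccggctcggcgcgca
ETV1: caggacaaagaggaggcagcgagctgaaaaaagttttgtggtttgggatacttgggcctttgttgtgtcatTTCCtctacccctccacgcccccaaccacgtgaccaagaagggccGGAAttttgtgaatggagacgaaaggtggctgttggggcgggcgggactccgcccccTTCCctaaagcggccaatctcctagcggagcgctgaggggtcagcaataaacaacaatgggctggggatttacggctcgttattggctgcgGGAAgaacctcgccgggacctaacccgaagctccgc
ELF3: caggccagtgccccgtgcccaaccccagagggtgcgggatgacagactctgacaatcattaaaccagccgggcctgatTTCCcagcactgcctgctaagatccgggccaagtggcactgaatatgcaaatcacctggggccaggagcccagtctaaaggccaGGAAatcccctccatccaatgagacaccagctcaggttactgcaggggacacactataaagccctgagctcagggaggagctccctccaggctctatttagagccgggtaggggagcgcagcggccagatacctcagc

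ETV4 and ETV5 belong with ETV1 to the PEA3 subfamily, whose members act downstream of receptor tyrosine kinases. ETV4 (ENSG00000175832, hg18 chr17:38960738-38979288, 2513 nt) was at 5.39 scaled FPKM in LAPC4 (175 counts) and 2.11 in LAPC4-CR (132 counts). The LNCaP pair had 0.473 and 0.370 and the VCaP pair 0.407 and 0.372, on 10 to 15 counts each. The LAPC4 libraries did not overlap the rest. ETV4 rose in the LAPC4 lineage against the others by a log2 fold change of 3.08 (SE 0.40, adjusted p = 0.011, edgeR), in a contrast that called 4.84% of genes higher and 3.15% lower. LAPC4-CR was 2.55-fold below LAPC4 (counting interval 2.03 to 3.23).

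ETV5 (ENSG00000244405, hg18 chr3:187246791-187310801, 5802 nt) was at 1.52 scaled FPKM in LAPC4 (114 counts) and 1.68 in LAPC4-CR (242 counts), a ratio whose counting interval of 0.878 to 1.39 includes 1. The LNCaP pair had 0.521 and 0.262 and the VCaP pair 0.317 and 0.290. ETV5 had a mean under 1 scaled FPKM and did not enter the test. In the fit without that filter its contrast for the LAPC4 lineage was 2.30 (SE 0.41, edgeR adjusted p = 0.00049). That fit called more genes in this contrast than the filtered fit did, so this adjusted p cannot be set beside that of ETV4. FLI1 (ENSG00000151702, hg18 chr11:128060256-128188371, 7995 nt), the closest relative of ERG, was at 0.190 to 0.300 scaled FPKM in the 6 libraries, on 18 to 45 counts. Its pairs could not be told apart beyond counting error, and in the fit without the filter no contrast of FLI1 had an edgeR adjusted p under 0.85.

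The summed level of ERG, ETV1, ETV4, ETV5 and FLI1, a grouping made after the values were seen, was 18.1 scaled FPKM in LNCaP and 18.2 in VCaP. ETV1 made up 92.0% of the first and ERG 92.8% of the second. The sum was 7.65 in LAPC4, where ETV4 held 70.5%. In the resistant libraries it was 1.06 in LNCaP-abl, 6.65 in VCaP-CR and 4.45 in LAPC4-CR, which is 17.0-fold, 2.74-fold and 1.72-fold below the parent. The leading gene of the sum was the same in both states for VCaP and LAPC4, whereas LNCaP-abl had no gene of this class above 0.370 scaled FPKM.

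SPDEF (ENSG00000124664, hg18 chr6:34613557-34632088, 1914 nt), a factor of luminal and goblet cells, had 39.2 and 24.9 scaled FPKM in the LNCaP pair, 85.0 and 66.6 in the VCaP pair, and 46.8 and 84.8 in the LAPC4 pair. The 2 highest libraries, VCaP and LAPC4-CR, differ in state and lineage. SPDEF was 1.58-fold lower in LNCaP-abl (counting interval 1.41 to 1.76), 1.28-fold lower in VCaP-CR (1.2 to 1.36) and 1.81-fold higher in LAPC4-CR (1.70 to 1.94). No lineage contrast of SPDEF passed in edgeR (adjusted p of 0.15 to 0.49).

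EHF (ENSG00000135373, hg18 chr11:34599216-34639180, 4386 nt), an epithelial ETS factor of the ESE subgroup, had 65.2 and 33.0 scaled FPKM in the LNCaP pair, 24.0 and 35.6 in the VCaP pair, and 95 and 68.3 in the LAPC4 pair. The LAPC4 libraries were the highest and VCaP the lowest. Against its parent, EHF was 1.98-fold lower in LNCaP-abl (1.86 to 2.10), 1.48-fold higher in VCaP-CR (1.38 to 1.60) and 1.39-fold lower in LAPC4-CR (1.34 to 1.44). Its LAPC4 contrast was 1.09 (SE 0.35, edgeR adjusted p = 0.11).

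ELF3 (ENSG00000163435, hg18 chr1:200243696-200252939, 7191 nt), of the same subgroup, was at 34.0 scaled FPKM in LAPC4 (3161 counts) and 14.3 in LAPC4-CR (2553 counts). The LNCaP pair had 2.03 and 6.21 (135 and 528 counts), and the VCaP pair 5.19 and 4.30 (365 and 496 counts). The LAPC4 libraries lay above the other 4, and ELF3 rose in the LAPC4 contrast by 2.46 (SE 0.54, edgeR adjusted p = 0.043). This call was lost without the LAPC4 library, where the contrast was 1.41 (adjusted p = 0.19). Between states, ELF3 was 3.06-fold higher in LNCaP-abl than in LNCaP (2.53 to 3.73), 1.21-fold lower in VCaP-CR (1.05 to 1.38) and 2.39-fold lower in LAPC4-CR (2.26 to 2.51).

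ETV6 (ENSG00000139083, hg18 chr12:11694055-11935825, 3297 nt) had 2.36 and 3.10 scaled FPKM in the LNCaP pair, 1.18 and 1.78 in the VCaP pair, and 2.09 and 3.18 in the LAPC4 pair. It was higher in the resistant library of all 3 pairs, by 1.32-fold, 1.51-fold and 1.52-fold, with a counting interval that included 1 in the LNCaP pair (0.975 to 1.79). Of the 8 members tested, 1 was higher in all 3 pairs (ETV6) and 2 were lower (ETV1 and ETV4), against 15.1% higher and 16.7% lower over all tested genes, so these counts are no result about the members. ETS2 (ENSG00000157557, hg18 chr21:39099101-39118749, 4595 nt) had 0.869 and 1.88 scaled FPKM in the LNCaP pair, 1.89 and 0.855 in the VCaP pair, and 2.58 and 1.59 in the LAPC4 pair. It was 2.16-fold higher in LNCaP-abl (1.47 to 3.24) but 2.21-fold lower in VCaP-CR (1.58 to 3.12) and 1.62-fold lower in LAPC4-CR (1.3 to 2.02).

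Over the 3 pairs, 0 of the 8 tested members were higher and 0 lower in the resistant state at an edgeR adjusted p under 5%, as were 0.0% of all 16231 genes. At an unadjusted p under 0.05 there were also 0 members, and DESeq2, limma and edgeR without the filter called 0 members too. Over all genes the unadjusted p was under 0.05 for 728 that were higher and 548 that were lower. The edgeR log2 fold changes were -0.89 for ERG (SE 0.42, adjusted p = 0.65), -1.88 for ETV1 (SE 1.41) and -0.70 for ETV4 (SE 0.42). They were 0.54 for ETV6 (SE 0.31), -0.29 for EHF (SE 0.35), -0.27 for ETS2 (SE 0.50), -0.04 for SPDEF (SE 0.35) and 0.00 for ELF3 (SE 0.51). The SE of ETV1 was the largest of the 8. ETV1 was 1.21-fold lower in the VCaP pair and 1.07-fold lower in the LAPC4 pair, with counting intervals that include 1, against 106-fold in the LNCaP pair.

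Within pairs, members were counted where log2(scaled FPKM + 1) differed by at least 1 unit (2-fold), a scale that understates changes at low levels and that has no test here. In the LNCaP pair, ELF3 was higher and ETV1 lower, 1 and 1 of 8 tested members, against 6.23% and 6.19% of all tested genes (12.4% in all). In the VCaP pair, ERG was lower and 0 members higher, against 2.03% lower and 2.37% higher (4.39% in all). In the LAPC4 pair, ELF3 and ETV4 were lower and 0 members higher, against 5.28% lower and 5.22% higher (10.5% in all). ETV5 and FLI1, which were not tested, did not reach 2-fold on this scale in any pair. ETV1 in the LNCaP pair had the largest change, at -3.93 on this log2 scale, followed by ERG in the VCaP pair at -1.47.

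**Figure D2:**
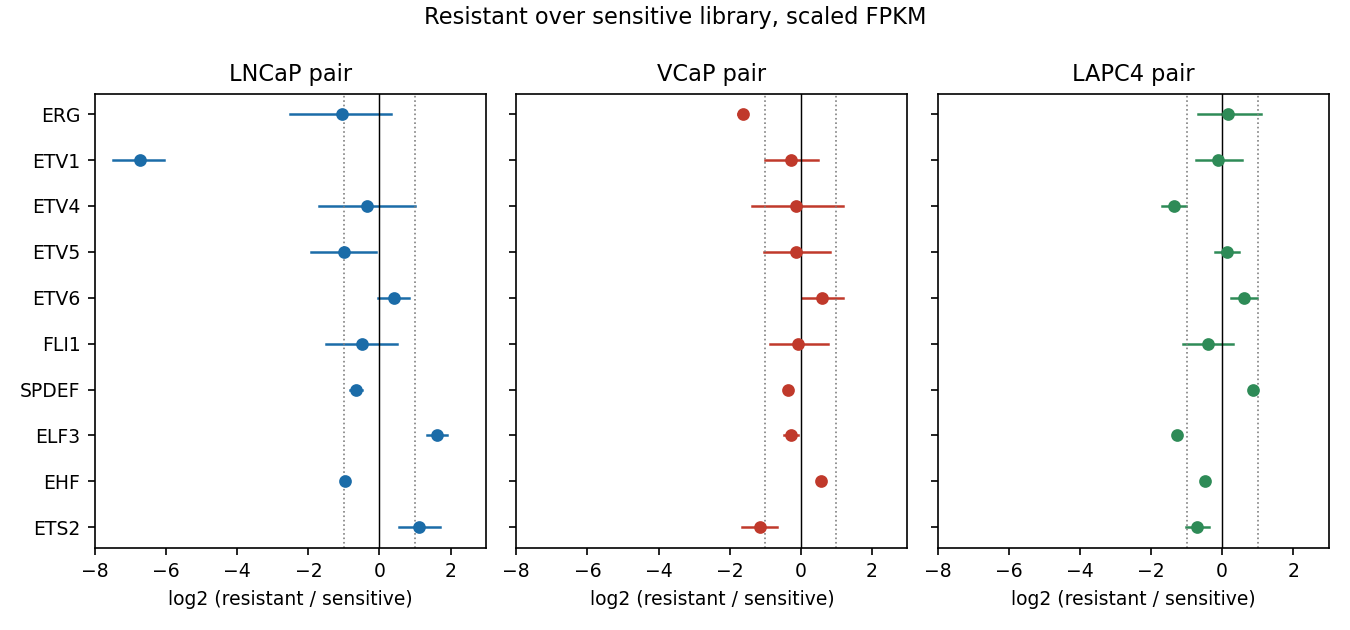
Ratio of scaled FPKM in the resistant over the sensitive library (log2 axis) for each ETS factor and pair. Bars are 95% counting intervals and dotted lines mark 2-fold; ETV1 in the LNCaP pair lies farthest from 0, at 106-fold lower, and ELF3 is on opposite sides in the LNCaP and LAPC4 pairs.

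Of the 3 lineage contrasts, which share all 6 libraries and sum to 0 for each gene, that of LNCaP called 1 of 8 members lower (ERG) and 0 higher, against 1.15% lower and 1.62% higher over all genes (2.77% in all). ERG was called lower in it (-3.49, SE 0.51, edgeR adjusted p = 0.027) and in the LAPC4 contrast (-2.54, SE 0.49, adjusted p = 0.031) because the VCaP libraries are part of the mean that each was set against. Both calls were lost in limma (adjusted p = 0.080 and 0.064), the first also in edgeR without LNCaP-abl (0.078) and the second without LAPC4 (0.095). The VCaP contrast called 1 member higher (ERG) and 0 lower, against the 7.04% and 5.27% given above (12.3% in all). The LAPC4 contrast called 2 higher (ETV4 and ELF3) and 1 lower (ERG), against 4.84% and 3.15% (7.98% in all). ERG, ETV1 and ETV4 entered the test only through the libraries in which they were high.

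**Figure D3:**
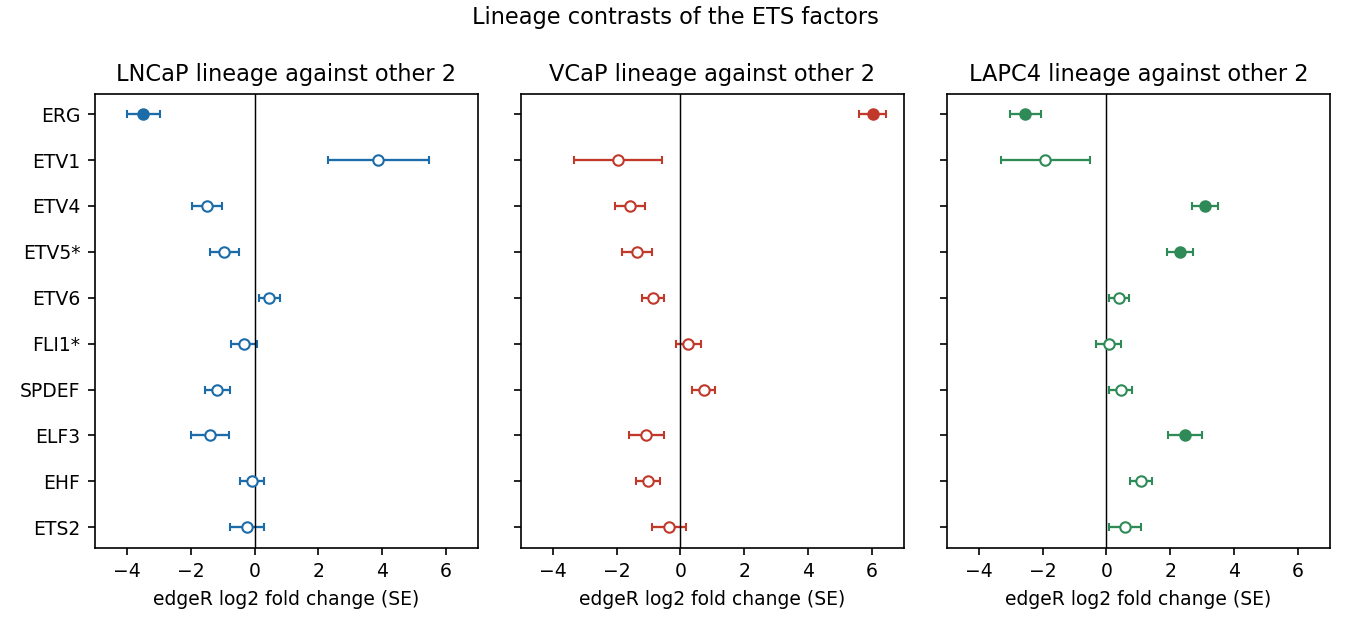
edgeR log2 fold change of each lineage against the mean of the other lineages, with 1 SE, for the 10 ETS factors. Filled points have an adjusted p under 5%, and ETV5 and FLI1, marked with an asterisk, come from the fit without a filter on low values; the filled point farthest from 0 is ERG in the VCaP lineage at 6.02.

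The ETS family has 28 genes in humans, and their summed level was 176 and 133 scaled FPKM in the LNCaP pair, 191 and 182 in the VCaP pair, and 251 and 249 in the LAPC4 pair. SPDEF, EHF and ELF3 together held 48.2% of it in LNCaP-abl and 58.6% to 70.1% in the other libraries. EHF ranked first in LNCaP, LNCaP-abl and LAPC4, and SPDEF in VCaP, VCaP-CR and LAPC4-CR. ETV1 ranked 3 of 28 in LNCaP with 9.43% of the sum and 25 of 28 in LNCaP-abl with 0.118%. ERG ranked 3 in VCaP with 8.88% and 8 in VCaP-CR with 3.0%.

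**Figure D4:**
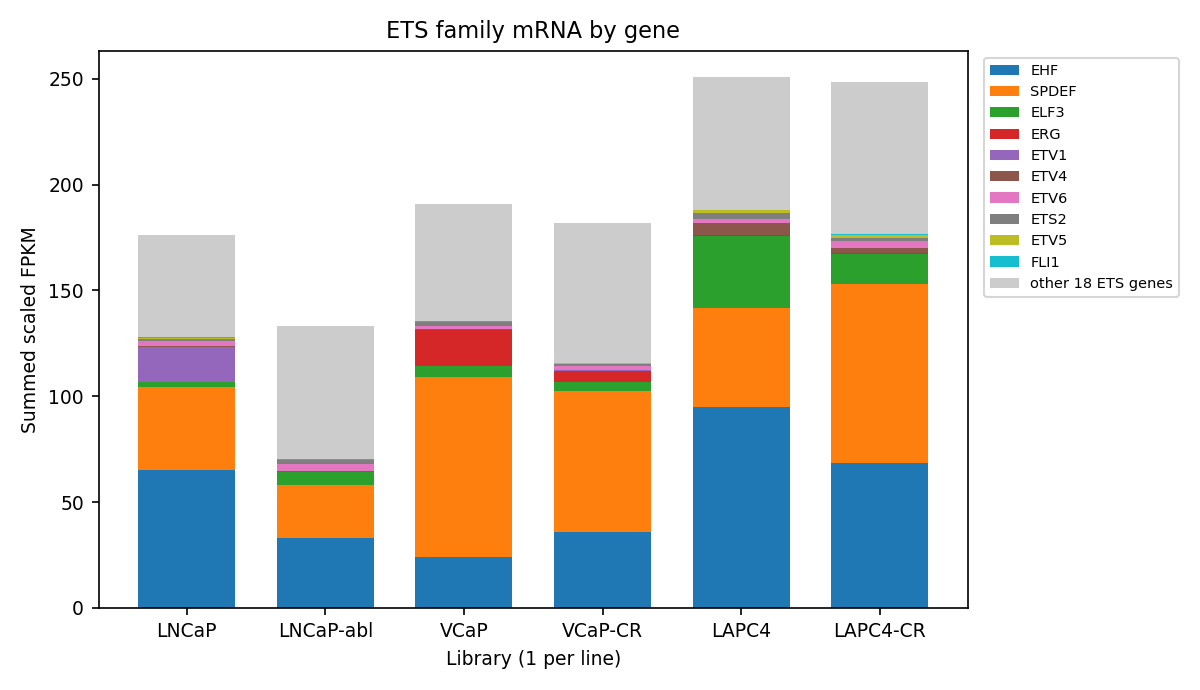
Summed scaled FPKM of the 28 ETS genes in each library, stacked by gene, with 18 genes that are not described singly in grey. The largest parts are EHF and SPDEF; the ETV1 part is seen in LNCaP (9.43% of the sum) and the ERG part in VCaP (8.88%) and VCaP-CR (3.0%).

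Of the 18 other ETS genes, 10 had a mean of at least 1 scaled FPKM. ELF4, first found in myeloid cells, rose in the VCaP lineage by a log2 fold change of 1.87 (SE 0.37, edgeR adjusted p = 0.026), with 4.86 and 12.2 scaled FPKM in the VCaP pair and 0.776 to 3.39 elsewhere. ERF, a repressor that binds the same sites as ERG, rose in the LAPC4 lineage by 1.43 (SE 0.33, edgeR adjusted p = 0.049), with 17.7 and 19.1 scaled FPKM against 5.31 to 9.0. No other gene of the 10 was called in any lineage, and 0 were called between states. The VCaP contrast thus called 1 of the 10 higher, against 7.04% of all genes, and the LAPC4 contrast 1 of the 10, against 4.84%. These counts are no result about the 10 genes. ELF5, a factor of luminal progenitors in the breast, was 9.95-fold higher in LNCaP-abl than in LNCaP (6.30 to 16.6), at 4.78 against 0.481 scaled FPKM. ELF1 was higher in all 3 resistant libraries, by 1.70-fold, 1.81-fold and 1.84-fold, with an edgeR log2 fold change of 0.85 (SE 0.25, adjusted p = 0.59). Of the 10 genes, 4 were higher in all 3 pairs (ETV3, ELF1, ELF4 and ELF5) and 0 lower, against 15.1% and 16.7% of all tested genes. ELF5 reached the mean needed for testing only with its LNCaP-abl level, so its rise is no independent evidence. The count itself was not tested.

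TMPRSS2, the fusion partner of ERG, was not lower in VCaP-CR. It was at 14.2 and 19.1 scaled FPKM in the VCaP pair, 1.34-fold higher (1.24 to 1.46), while ERG was 3.10-fold lower in the same pair. SLC45A3, a prostate-restricted transporter gene and a known partner, was 1.23-fold higher there (1.16 to 1.3), and KLK2 was 2.0-fold lower (1.97 to 2.03). In the LNCaP pair TMPRSS2 was 3.74-fold lower (3.43 to 4.08) and SLC45A3 13.5-fold lower (11.7 to 15.6), beside the 106-fold lower ETV1. The LAPC4 pair had 56.9 and 0.638 scaled FPKM of TMPRSS2, the lowest level of the 6 being that of LAPC4-CR. KLK2 was lower in all 3 pairs (-5.19 to -0.997 on the log2(scaled FPKM + 1) scale). SLC45A3 was lower in the LNCaP and LAPC4 pairs (lowest -3.51, median of the 3 pairs -2.63). At 2-fold on that scale, 3 of the 9 partner genes were lower and 0 higher in the LNCaP pair, against 6.19% and 6.23% of all genes. The LAPC4 pair had 3 lower and 1 higher, against 5.28% and 5.22%, and the VCaP pair 0 and 0, against 2.03% and 2.37%. MIPOL1, at the site into which ETV1 is moved in LNCaP, had 2.87 and 1.67 scaled FPKM in the LNCaP pair, its highest and lowest level, and 2.01 to 2.64 in the other lineages. Of the 9 partner genes tested, the VCaP contrast called NDRG1 (3.76, SE 0.33, edgeR adjusted p = 0.002) and KLK2 (7.58, SE 1.18, adjusted p = 0.014) higher and 0 lower, against 7.04% and 5.27% of all genes. The LNCaP contrast called 0 higher and 1 lower, NDRG1 (-3.39, SE 0.40, adjusted p = 0.014), against 1.62% and 1.15%.

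ERG and TMPRSS2 lie 2.80 Mb apart on chromosome 21 in the files' coordinates, with ETS2 between them. From ERG to TMPRSS2, a span chosen after the values were seen, 18 genes were tested. The VCaP contrast called 4 of them higher, ERG included, and 0 lower. The count supports nothing about the span, since ERG set it, and ERG, FAM3B and PCP4 passed the filter only through the VCaP libraries. Apart from ERG the called genes were FAM3B (4.23, SE 0.32, edgeR adjusted p = 0.002), PCP4 (3.15, SE 0.71, adjusted p = 0.037) and the ribosomal pseudogene RPL23AP12 (1.69, SE 0.38, adjusted p = 0.038). TMPRSS2 itself was not called (0.63, SE 1.32), nor was ETS2 (-0.36, SE 0.52). Within 1 Mb of ETV1, 4 genes were tested, ETV1 among them as the one protein-coding gene, and the LNCaP contrast called 0 of them, against 1.62% higher and 1.15% lower over all genes. The same held for the 10 genes within 1 Mb of MIPOL1.

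Genes reported to accompany ERG in prostate tumours were listed from general knowledge, 16 in all, of which 10 were tested and 6 had a mean under 1 scaled FPKM. The VCaP contrast called 6 of the 10 higher and 0 lower, against 7.04% and 5.27% of all genes, and their median log2 fold change was 2.71 against -0.02 over all genes. They were TDRD1 (6.40, SE 0.38, edgeR adjusted p = 0.002), PLA1A (5.49, SE 0.49), ARHGDIB (5.30, SE 0.56), CRISP3 (3.65, SE 0.68), NCALD (3.09, SE 0.61) and CACNA1D (1.61, SE 0.35). Studies of VCaP helped to define such genes, and several passed the filter only through the VCaP libraries, so the count is no independent evidence. CRISP3 was at 378 scaled FPKM in LAPC4, next to 516 in VCaP. ADAMTS1, EZH2, SOX9 and HLA-DMB were not called.

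Within the VCaP pair, where ERG was 3.10-fold lower in VCaP-CR, 6 of these 10 genes were at least 2-fold lower on the log2(scaled FPKM + 1) scale and 1, SOX9, higher, against 2.03% and 2.37% of all genes. Several of the 10 passed the filter only through the VCaP libraries, so this count too is no independent evidence about ERG. PLA1A was 4.34-fold lower (3.72 to 5.08), from 27.9 to 6.43 scaled FPKM. ARHGDIB was 4.47-fold lower (3.85 to 5.22), from 31.3 to 7.0. NCALD was 2.45-fold lower (2.11 to 2.84), HLA-DMB 17.6-fold (13.2 to 23.8), ADAMTS1 9.84-fold (7.66 to 12.8) and CRISP3 27.2-fold (25.2 to 29.4). TDRD1, the gene with the largest VCaP contrast, went the other way and was 1.17-fold higher (1.11 to 1.23), at 43.9 and 51.4 scaled FPKM. LUM was 12.7-fold higher in VCaP-CR in this comparison, and its part was not tested. CRISP3 and ADAMTS1 were also lower in LAPC4-CR than in LAPC4, by 40.5-fold and 16.5-fold, in a lineage with ERG at or below 0.186 scaled FPKM. In the LNCaP pair, also with low ERG, ADAMTS1 was 9.79-fold higher in the resistant library (9.16 to 10.5).

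**Figure D5:**
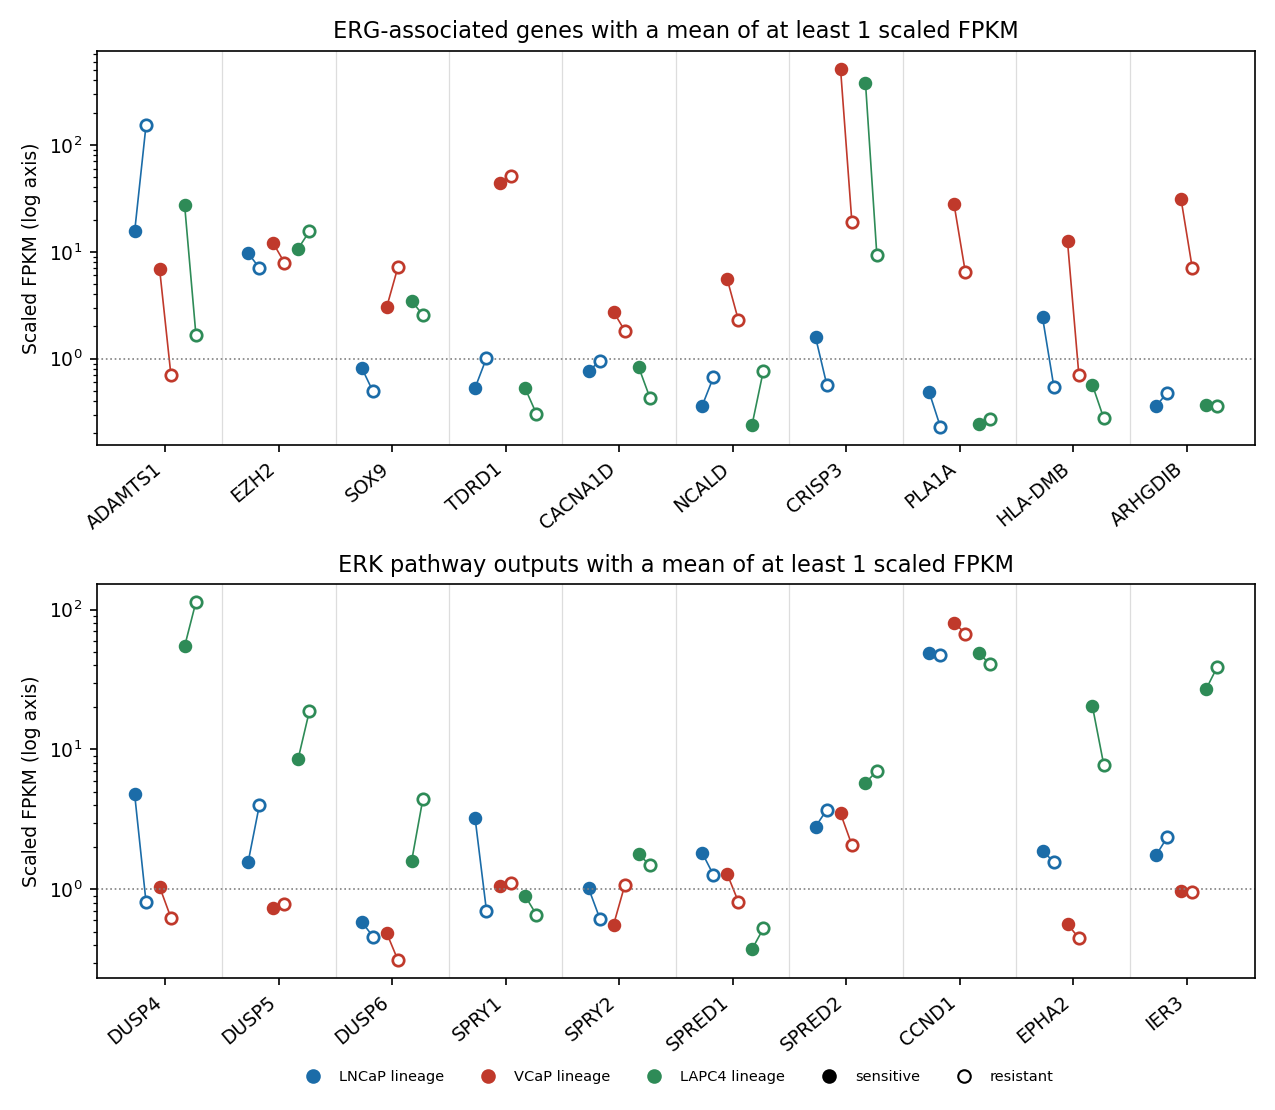
Scaled FPKM (log axis) of the 10 tested ERG-associated genes (top) and 10 tested ERK pathway output genes (bottom), with symbols as in the plot of levels. TDRD1 is high in both VCaP libraries (43.9 and 51.4), and DUSP4 in both LAPC4 libraries (54.5 and 113).

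ETV4 and ETV5 are themselves outputs of the ERK pathway, and 15 further output genes were listed, 10 of them tested. The LAPC4 contrast called 5 of the 10 higher and 0 lower, against 4.84% and 3.15% of all genes, with a median log2 fold change of 1.89 against -0.01. They were DUSP4 (6.08, SE 0.71, edgeR adjusted p = 0.008), IER3 (4.54, SE 0.31), EPHA2 (3.79, SE 0.35), DUSP5 (3.19, SE 0.35) and DUSP6 (2.68, SE 0.51). Genes high only in the LAPC4 libraries could pass the filter through these alone. The list was also chosen with earlier results of these data known, so the count is no independent evidence. The DUSP genes encode phosphatases that switch off MAP kinases. The pathway inhibitor SPRY1 was not called and had its highest level in LNCaP, at 3.22 scaled FPKM, with 0.705 in LNCaP-abl. The VCaP contrast, which shares these libraries, called 4 of the 10 lower (DUSP4, DUSP5, EPHA2 and IER3). Between LAPC4 and LAPC4-CR, 3 of the 10 were at least 2-fold higher on the log2(scaled FPKM + 1) scale (DUSP4, DUSP5 and DUSP6) and 1 lower (EPHA2), against 5.22% and 5.28% of all genes. DUSP4 was 2.08-fold higher (2.01 to 2.14) and DUSP6 2.80-fold higher (2.24 to 3.53) in the resistant library, whereas EPHA2 was 2.62-fold lower (2.39 to 2.87), next to ETV4 at 2.55-fold lower and ETV5 at 1.1-fold higher.

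Of 11 genes for proteins that bind, modify or degrade ETS factors, all were tested. The VCaP contrast called TRIM25, a ubiquitin ligase reported to act on ERG, lower (-1.31, SE 0.27, edgeR adjusted p = 0.03). This was 1 of 11 lower and 0 higher, against 5.27% and 7.04% of all genes, so the count is no result about the list. No other gene of this list was called in any contrast. USP9X, which removes ubiquitin from ERG, was 2.19-fold higher in VCaP-CR (2.07 to 2.33), at 31.5 against 14.4 scaled FPKM, and was also higher in LNCaP-abl (1.46-fold) and LAPC4-CR (2.16-fold).

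Of 6 listed targets of the PEA3 subfamily, TWIST1 alone had the mean needed for testing, and no contrast called it. TWIST1 was at 11.5 scaled FPKM in LNCaP and 0.499 in LNCaP-abl, 23.1-fold lower (13.0 to 45.4), in the pair in which ETV1 was 106-fold lower. The LNCaP level alone was enough to reach the mean needed for testing, so this fall is no independent evidence about ETV1. TWIST1 was also 3.57-fold lower in LAPC4-CR than in LAPC4 (2.32 to 5.59), where the counting interval of ETV1 included 1. The matrix metalloproteinases of the list were at most 0.604 scaled FPKM in any library. Of 8 tested genes listed as targets of epithelial ETS factors, the LAPC4 contrast called 3 higher and 1 lower (TFF1), against 4.84% and 3.15% of all genes. AGR2, a secretory-cell gene, rose by 1.16 (SE 0.24, edgeR adjusted p = 0.038), KRT19 by 4.17 (SE 0.59, adjusted p = 0.013) and CLDN7, a tight-junction gene reported to be an ELF3 target, by 1.82 (SE 0.31, adjusted p = 0.022). CLDN7 was at 150 scaled FPKM in LAPC4, 79.1 in LAPC4-CR and 16.9 to 56.3 elsewhere. The LAPC4 contrast was not alone in calling genes of this list. The LNCaP contrast called 0 of the 8 higher and 2 lower, against 1.62% and 1.15% of all genes. The VCaP contrast called 1 higher and 2 lower, against 7.04% and 5.27%.

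Among tested genes that spanned at least 2 log2 units over the libraries (2824), the closest in pattern to ERG over the 6 libraries were PLA2G4C (Pearson's r 0.999), RP11-431J24.2 (0.998) and MATK (0.998). For ETV1 they were RP11-1281K21.5 (0.999), KLHL1 (0.998) and MSN (0.998). MSN, the gene of the membrane linker moesin, was at 9.07 scaled FPKM in LNCaP and 0.129 in LNCaP-abl. ETV4 was most like NGFR (0.999), LBH (0.998) and SDR16C5 (0.998), and ELF3 most like INPPL1 (0.995), HDAC5 (0.983) and ZFAND2B (0.980). With 6 libraries a value near 1 is common: 117 genes had r over 0.95 with ERG, 13 with ETV1, 77 with ETV4 and 16 with ELF3, and all share the same libraries and scaling.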

How the data were processed

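Per the labels' protocols, RNeasy was used to extract total RNA, and the libraries are from the Total RNA-Seq kit for SOLiD. The authors deposited, per the file headers, a count and an FPKM value per gene, with reads counted by HTSeq on build hg18 per the submitters' processing notes. For the aligner, the annotation and the strand setting, the sources used here give nothing, so overlapping and antisense genes cannot be told apart. Deposited FPKM equals count over gene length and summed counts of the file within 0.0445% (genes with 20 or more counts). The deposited gene length served only this check and gave the length of each member. Table starts count from 0, so 1 was added.

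Of 51698 entries, 8763 of small RNA classes were left out and entries sharing a symbol were summed (48 symbols). FPKM was divided by a factor per library, 0.847 to 1.11, from 11600 genes at 1 or more in all libraries. The 16231 genes whose mean reached 1 scaled FPKM were tested on deposited counts with edgeR 4.0.16 (R 4.3.3; quasi-likelihood, TMM, Benjamini-Hochberg over all tested genes, threshold 5%). The model had lineage and state, which gives the state contrast with the lineage as a block and the 3 lineage contrasts. Deviations from the state means correlated at 0.46, 0.73 and 0.59 within the LNCaP, VCaP and LAPC4 lineages and at most -0.06 between lineages; the pairing comes from the line names. Lineage contrasts treat parent and resistant line as the 2 libraries of a lineage. Nothing in the labels says that libraries came from separate cultures, so p-values measure only the spread between these libraries. On simulated counts for 16231 genes, edgeR recovered 77% to 83% of 4-fold and 100% of 16-fold changes with 1 to 9 false calls per contrast. All genes there had the same dispersion, 0.121. Recovery at the counts and spread of the single members was not tested. Alternatives were DESeq2 1.42.0 and limma 3.58.1. Ratios have exact conditional 95% intervals.

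Members and lists were chosen with earlier results of these data known. All members are named. From each list the text names called genes and up to 4 others with the largest change, and for members with a wide range the 3 genes with the highest Pearson's r. PECAM1 was not analysed here, and COP1 was read under its older symbol RFWD2.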

Additional observations from a re-analysis of the deposited data

Results flagged for a closer look

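The pairs went in opposite directions for ELF3, which was at least 2-fold higher in LNCaP-abl than in LNCaP and at least 2-fold lower in LAPC4-CR than in LAPC4. Subtracting the LAPC4 pair's change from the LNCaP pair's gave 2.45 on the log2(scaled FPKM + 1) scale. With a single library per line, the difference between the pairs was not tested. The counting intervals of both ratios (2.53 to 3.73 higher, 2.26 to 2.51 lower) lie beyond 2-fold.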

How the results depend on the processing

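Of values under alternatives, 97 of 122 counts of members were equal or close to the main count. Of the tests of single members, 307 of 348 kept their direction and call. Of the changes within pairs, 140 of 150 moved by no more than their counting interval allows. Without the replicate block the state contrast called 0 members, as with it, and 0 members were called between states under every alternative run. The edgeR fit with the block called 0 of all genes, so these equal counts cannot show whether the pairing matters. Over all genes the state contrast called 0 in edgeR, 137 in DESeq2, 153 without a filter and 4 to 33 with 1 pair left out. Lineage contrasts called 449 (LNCaP), 1997 (VCaP) and 1296 (LAPC4) genes, against 1711, 3308 and 2552 in DESeq2, 1926, 3523 and 2838 without a filter, 256, 1293 and 643 with the filter at 5, 198, 1307 and 857 among protein-coding genes, and 168 to 852, 366 to 3162 and 647 to 1983 with 1 library left out.

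Counts of members in the LNCaP contrast (0 higher, 1 lower) became 0 lower in limma and with the filter at 5, where SPDEF, ELF3 and EHF were the members tested, and 1 higher and 2 lower without a filter. Leaving out 1 library gave 0 to 1 higher and 0 to 2 lower. In the VCaP contrast (1 and 0) there was 1 lower, ETV4, in DESeq2 and without a filter, and 0 higher with the filter at 5. Leaving out 1 library gave 1 to 2 higher and 0 to 1 lower. In the LAPC4 contrast (2 and 1) limma gave 1 higher and 0 lower, no filter 4 higher, the filter at 5 gave 1 and 0, and protein-coding genes alone 1 higher. Leaving out 1 library gave 1 to 3 higher and 0 to 2 lower. ERG in the VCaP contrast kept its call in each alternative that tested it (log2 3.22 to 6.63), as did ETV4 in the LAPC4 contrast (1.67 to 3.62). ELF3 there lost it in limma (adjusted p = 0.055), among protein-coding genes (0.059) and without LAPC4. Within pairs, a pseudocount of 5 left 0 members higher in the LNCaP pair and 1 lower in the LAPC4 pair, and FPKM as deposited also left 1 lower there. Without a filter, ETV1 was called in the LNCaP contrast (3.79, adjusted p = 0.012).

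Some values that were not called changed sign. In the state contrast these were ELF3 (0.00) in limma (-0.057), with the filter at 5 (-0.0095), among protein-coding genes (-0.048) and without the block (-0.73), and SPDEF (-0.04) without a filter (0.12) and without the block (0.061). With 1 pair left out the range was -0.50 to 0.27 for SPDEF, -0.75 to 0.67 for ELF3, -0.70 to 0.062 for EHF and -0.89 to 0.21 for ETS2. With 1 library left out, ETV1 ranged from -0.67 to 5.86 in the LNCaP, -3.60 to 0.38 in the VCaP and -3.72 to 0.29 in the LAPC4 contrast, changing sign each time without LNCaP. The range was -1.35 to 0.67 for ETS2 and -0.61 to 0.41 for EHF in the LNCaP contrast, -1.06 to 0.25 for ETS2 in the VCaP contrast and -0.29 to 1.07 for SPDEF in the LAPC4 contrast. The cause was not tested. The pairs of FLI1, and those of ERG and ETV1 outside the lineage in which each was high, could not be ordered at this depth.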
